A study of Mus musculus with 50 samples.

Results

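The 43 genes described here carry out or start DNA replication, and they were taken by name from the 19224 genes of a single-cell RNA count matrix of mouse blood-forming cells. In the study, single haematopoietic stem cells (HSCs) from GFP-transgenic donors of the strain B6-Ly5.2, in which the β-actin promoter drives GFP, were given together with whole marrow of B6-Ly5.2 mice to B6-Ly5.2 hosts that had been lethally irradiated. Marrow, in some samples with spleen, was taken after 1, 4 or 12 months (10, 26 and 14 of the 50 samples), enriched for c-Kit, and sorted cell by cell on CD201, CD150, CD48, Sca-1, c-Kit and lineage antigens or on GFP. Transcript 3′ ends were then sequenced by STRT-seq, a plate method with a barcode per cell. Cell names give a library and a barcode but no sample, so no cell could be placed at a month, in a tissue, or with the graft or the host. All cells together thus count as 1 sample: groups were set by marker genes, and no p-value was computed.

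A cell copies its genome in a fixed sequence of steps. In G1, Cdc6 and Cdt1 load the ring-shaped MCM helicase onto origins, which licenses them. At the start of S phase, Cdc45 and the GINS complex turn the ring into the active CMG helicase, primase and the polymerases copy the strands, and ribonucleotide reductase and thymidylate synthase supply the nucleotides. E2F factors drive many of these genes at the G1/S border, whereas Top2a, the topoisomerase that untangles chromosomes, and Mki67, which coats mitotic chromosomes, are most abundant later, in G2 and mitosis. Most HSCs of unperturbed adult marrow are quiescent, while the progenitors derived from them divide often. Cells without a count of Top2a or Mki67 may therefore include cells in G0, in G1 or early in S phase, and the counts alone do not separate these.

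The E2F recognition letters were looked up in the members' promoters because so many of these genes are known E2F targets. RefSeq windows of 300 bases (250 before to 50 after the annotated start, build GRCm38.p6) were matched for 36 of the 43 genes. One of the letter runs TTTCCCGC, TTTCGCGC, TTTGCCGC or TTTGGCGC, on either strand, stood in 13 of the 36 windows (36.1%), against 2.6% of the windows of all 27025 genes. They were those of Cdc6, Cdt1, Gins3, Hells, Lig1, Mcm3, Mcm5, Mcm6, Mcm7, Pola1, Pold1, Rfc3 and Uhrf1. The CCAAT box, looked up on either strand and able to share end letters with an E2F run, stood in 61.1% of the members' windows and in 41.1% of all. Stretches of 100 bases around a match are shown for an MCM subunit that was abundant in every Procr+ group (Mcm6, chr1:128359762-128359861, minus strand), for an MCM subunit that differed strongly between groups (Mcm5, chr8:75109310-75109409, plus strand) and for the catalytic subunit of polymerase alpha (Pola1, chrX:93632240-93632339, minus strand). Each reads 5′ to 3′ along its gene, with the matched letters in capitals.
Mcm6: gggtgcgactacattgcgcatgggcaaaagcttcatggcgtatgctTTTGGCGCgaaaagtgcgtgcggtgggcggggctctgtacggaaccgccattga
Mcm5: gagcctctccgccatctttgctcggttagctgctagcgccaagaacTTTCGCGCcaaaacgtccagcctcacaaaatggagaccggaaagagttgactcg
Pola1: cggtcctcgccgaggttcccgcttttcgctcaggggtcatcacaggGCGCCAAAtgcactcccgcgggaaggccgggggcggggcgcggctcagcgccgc
The matches begin 110, 153 and 138 bases before the respective starts, and the capitals in Pola1 are a run in the reverse orientation. In Mcm5 and Mcm6 a reverse run overlaps the capitals and goes on into the lower-case letters after them. A match describes letters and is not evidence of binding.

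Of 4271 cells in 67 libraries, 4185 had at least 1000 genes counted and at most 10% mitochondrial counts, with a median of 122013 counts. Procr encodes CD201, a surface marker of HSCs, and 3049 kept cells had it at 10 or more CPM (the standard unit of counts scaled to a common total per cell or group) and are called Procr+ cells. Their summed Procr was 291 CPM, with the HSC-associated genes Mecom at 153 and Hlf at 213 CPM and the T-cell gene Cd3e at 0.417 CPM. In 6 libraries the Procr+ cells carried a median of 1080 to 3280 CPM of summed neutrophil granule markers, against 60 to 762 CPM in the other 57 libraries with a value. Over all libraries, 819 Procr+ cells passed the marker rule of a mature or committed lineage other than the dendritic one. Cells without Procr were gated as Flt3+, as Kit+ without Flt3, or by 3 or more markers of 1 lineage at 100 CPM. Cells passing the dendritic list are called MHC class II cells, because they had Cd74 at 1580 CPM and H2-Aa at 1280 CPM. Siglech of plasmacytoid dendritic cells was at 27.6 CPM. As 1985 of the 3049 Procr+ cells passed the same list, it does not set this gate apart from them. The Flt3+ and Kit+ cells kept Mecom at 122 and 131 CPM and Hlf at 136 and 149 CPM, close to the Procr+ levels, so they are named by gate and not by cell type.

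Neither Top2a nor Mki67 was counted in 1564 Procr+ cells, and 1485 cells (48.7%) had a count of at least one of them. The cells with neither were shallower, at a median of 109805 counts and 3953 genes against 151798 counts and 4591 genes. Levels are counts summed over a group of cells as CPM, and a difference is a log2 ratio of those levels after adding 1 CPM. A member is called higher or lower when the levels differed at least 2-fold and 1 group reached 10 CPM. Counting intervals on these sums are narrow (for Mcm5, 97.8 to 100 CPM in cells with and 34.3 to 36.0 CPM in cells without), and they leave out amplification and the spread among cells and libraries. That spread is shown by library, without taking libraries as replicates.

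Within the Procr+ cells, replication genes were higher in the cells that also had Top2a or Mki67. Median log2 ratios were high for nucleotide supply (1.4) and helicase activation (1.2), but the latter genes ran from 0.32 to 2.9. Pole, Chaf1b, Pold2, Gins4 and the clamp loader genes Rfc1, Rfc2 and Rfc3 had log2 ratios of 0.38 or less. Of the 41 members that reached 10 CPM, 18 were called higher and 0 lower, beside 3.03% of all 8744 genes tested called higher and 0.0343% lower. The median log2 ratio over all 43 members was 0.91, with 41 above 0, and over all genes tested it was 0.01. Summed over the members the level was 3690 CPM against 2110 CPM. Within libraries holding at least 5 cells of both groups, the median member was higher in 51 of 58 and lower in 6, from -0.26 to 2.47. Without the 6 libraries with neutrophil markers 18 members were called, and without the Procr+ cells carrying markers of another lineage 20 were.

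**Figure D1:**
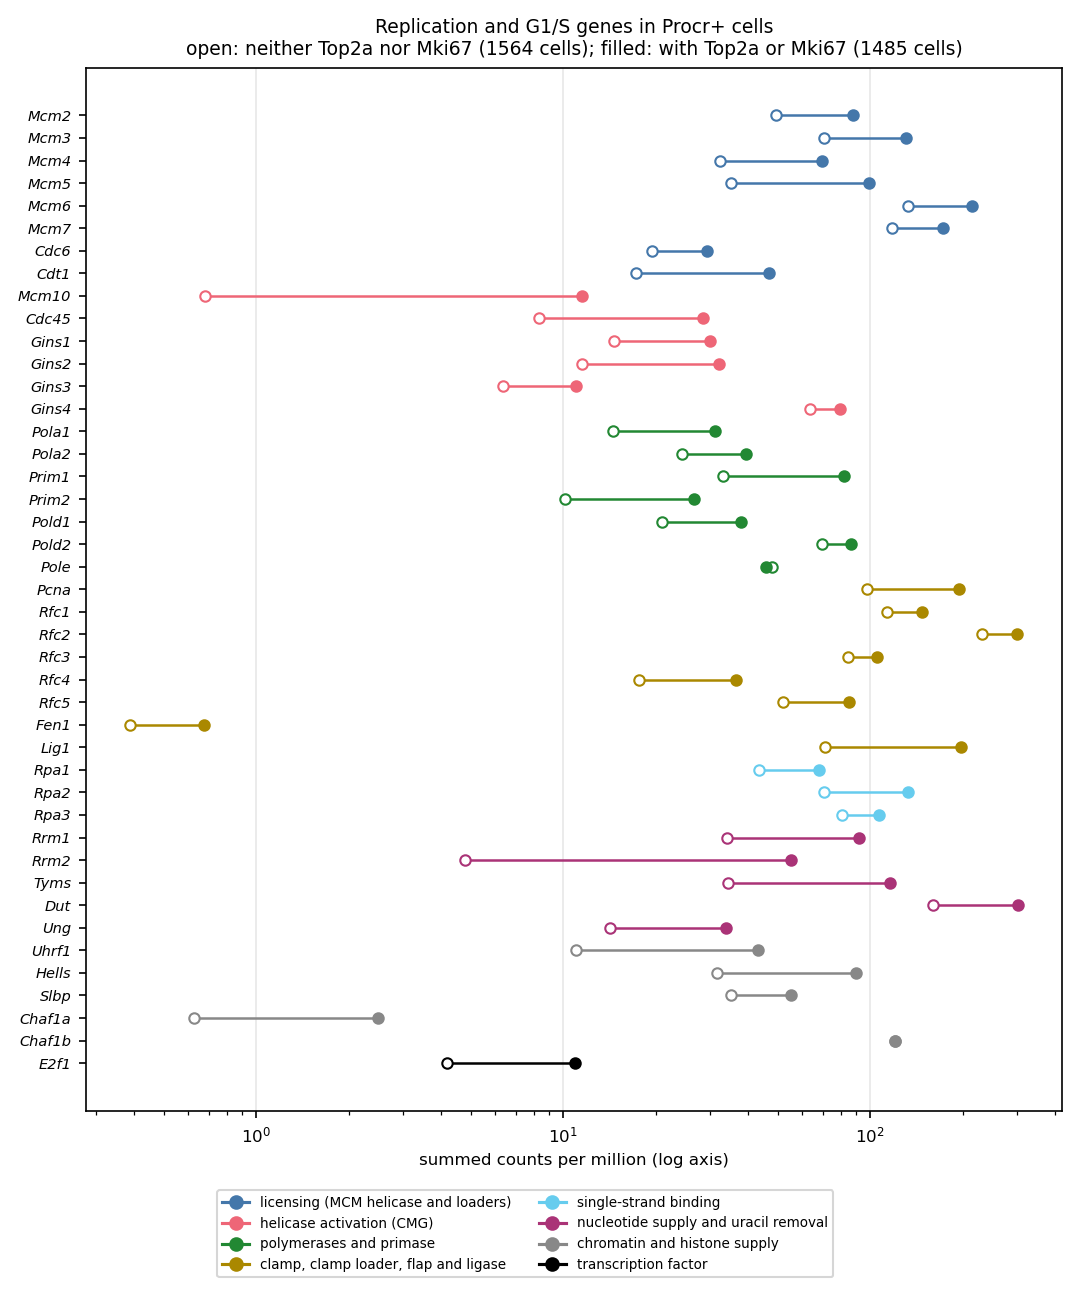
Summed level of each replication gene in Procr+ cells, in CPM on a log axis, with an open point for the 1564 cells with neither Top2a nor Mki67 and a filled point for the 1485 cells with one of them, coloured by role. Rrm2 and Mcm10 have the widest gaps (4.77 to 55.1 and 0.68 to 11.5 CPM), while the 2 points of Pole and of Chaf1b lie on each other.

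The genes of nucleotide supply and uracil removal differed most, with 4 of 5 called. Rrm2, the regulatory subunit of ribonucleotide reductase (chr12:24708241-24714146, plus strand), was at 4.77 CPM in cells with neither gene and at 55.1 CPM in the others, a log2 ratio of 3.28. Over the 52 libraries with at least 10 cells of both kinds, its level ran from 0 through a median of 2.57 to 34.7 CPM without Top2a or Mki67. With them it ran from 0 through 46.7 to 196 CPM. The ranges overlap, but the level was higher in the cells with Top2a or Mki67 in 49 of the 52 libraries. Its catalytic partner Rrm1 was at 34.2 and 91.6 CPM (1.40). Of the 2 subunits, the catalytic one thus had the smaller ratio. Tyms, thymidylate synthase, was at 34.5 and 116 CPM (1.72). Ung, the glycosylase that removes uracil from DNA, was at 14.2 and 33.9 CPM (1.2). Dut, the dUTPase that keeps uracil out, was not called, at 160 and 302 CPM (0.91).

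Among the 8 licensing genes, 3 were called. Mcm5 was at 35.2 and 99.0 CPM (1.47), and by library it ran from 4.29 through 31.7 to 114 CPM without and from 2.16 through 84.5 to 280 CPM with Top2a or Mki67, higher in 47 of 52. Cdt1, the loader that is destroyed in S phase, was at 17.3 and 46.7 CPM (1.38), and Mcm4 at 32.5 and 69.6 CPM (1.07). The ring's other subunits did not reach 2-fold. Mcm3 was at 70.5 and 131 CPM (0.88), Mcm2 at 49.2 and 87.6 CPM (0.82), Mcm6 at 133 and 215 CPM (0.69) and Mcm7 at 118 and 172 CPM (0.54). Cdc6, the ATPase that recruits the ring, was at 19.5 and 29.3 CPM (0.56). Subunits that form a single ring in equal numbers thus differed between the groups by log2 ratios from 0.54 to 1.47.

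The helicase activation genes had a median log2 ratio of 1.2, with 3 of 6 called. Mcm10, which helps to start the helicase, was at 0.68 CPM without Top2a or Mki67 and stood at 11.5 CPM with them (2.90). Its library median was 0.0767 CPM and 26 of the 52 libraries had no count of it, against 7.70 CPM and 2 libraries. Cdc45 was at 8.35 and 28.6 CPM (1.66). The GINS subunits differed unequally, with Gins2 at 11.5 and 32.1 CPM (1.41), Gins1 at 14.6 and 30.0 CPM (0.99), Gins3 at 6.36 and 11.0 CPM (0.70) and Gins4 at 63.5 and 79.4 CPM (0.32). All of the last 500 exonic bases of Gins2 overlap Gse1 on the opposite strand. Whether the counting used strand is not stated in the sources here, so this overlap may have added reads to the Gins2 counts or removed them. The same holds for Rfc5 (99.8% shared with Wsb2), Fen1 and Chaf1a (88.6% each, with Gm10143 and Ubxn6), Rfc4 (38.8%, with Eif4a2) and Mcm7 (12.8%, with Cops6).

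Of the 7 polymerase and primase genes, 3 were called. Both primase subunits, which lay down the RNA primers, were higher with Top2a or Mki67. Prim1 was at 33.0 and 82.1 CPM (1.29), and Prim2 at 10.1 and 26.6 CPM (1.31). Pola1, the polymerase that extends the primers, was at 14.5 and 31.2 CPM (1.06), and its partner Pola2 at 24.3 and 39.3 CPM (0.67). Pold1, the catalytic subunit of the lagging-strand polymerase, was at 21.0 and 37.9 CPM (0.82), and Pold2 at 69.6 and 86.3 CPM (0.30). Pole, the leading-strand polymerase (chr5:110286306-110337474, plus strand), was at 47.8 and 45.7 CPM (-0.06). It was higher in 25 of 52 libraries, whose ranges nearly coincided: 0.794 through 33.9 to 134 CPM without and 0 through 36.9 to 127 CPM with Top2a or Mki67.

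Of the clamp, clamp loader, flap and ligase genes, Lig1 and Rfc4 were called among 7 that reached 10 CPM. Lig1, which seals Okazaki fragments, was at 71.2 and 198 CPM (1.46), and Rfc4, a clamp loader subunit, at 17.6 and 36.6 CPM (1.01). Pcna, the sliding clamp that is widely used as an S-phase marker, was just under the call at 97.5 and 194 CPM (0.99). Of the other loader subunits, Rfc5 had 52.1 and 85.3 CPM (0.70), Rfc1 113 and 147 CPM (0.38), Rfc2 231 and 301 CPM (0.38) and Rfc3 84.9 and 105 CPM (0.30). Fen1, the flap endonuclease, had 0.388 and 0.677 CPM, below the level needed for a call. The RPA subunits, which coat single-stranded DNA, gave 0 calls of 3: Rpa2 had 70.5 and 133 CPM (0.91), Rpa1 43.4 and 68.3 CPM (0.64) and Rpa3 80.9 and 107 CPM (0.39).

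The chromatin group was split. Uhrf1, which carries DNA methylation over to new strands, was at 11.0 and 43.0 CPM (1.88), and Hells, a remodeller acting with it, at 31.6 and 89.5 CPM (1.47). Slbp, which binds the stem-loop of histone mRNAs, was at 35.1 and 55.0 CPM (0.63). Chaf1b, a subunit of the histone chaperone CAF-1, was at 120 CPM in both groups, and its large subunit Chaf1a stayed under the level at 0.624 and 2.49 CPM. E2f1, the transcription factor of the group, was at 4.19 and 10.9 CPM (1.2). Of the 15 called members with a promoter window, 6 held one of the E2F runs, as did 7 of the 21 members not called.

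**Figure D2:**
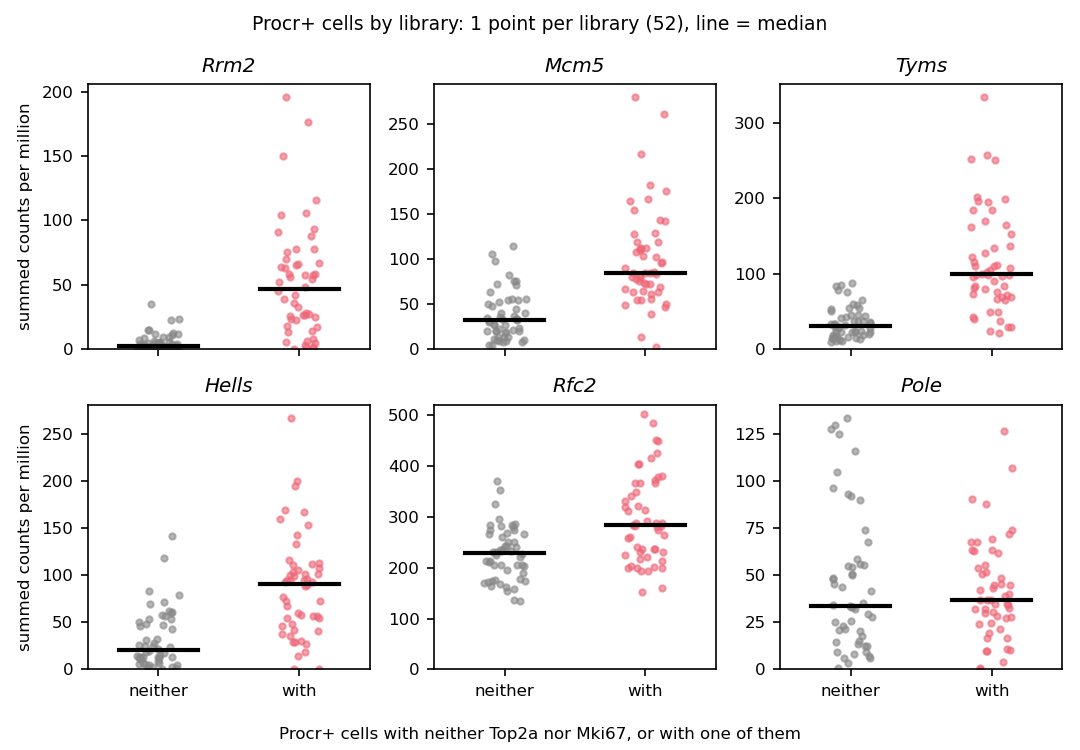
Levels in CPM of 6 of the genes by library, 1 point for each of 52 libraries with at least 10 Procr+ cells of both kinds, and a line at the median. The medians of Rrm2 are 2.57 and 46.7 CPM and those of Mcm5 31.7 and 84.5 CPM, whereas Pole stands at 33.9 and 36.9 CPM with overlapping points.

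Other replication genes followed a similar split, with 18 of 48 called higher and 0 lower (median 0.80). Among the largest ratios were those of Tk1, thymidine kinase (11.3 and 97.0 CPM), the histone chaperone Asf1b (5.21 and 39.7 CPM) and the checkpoint mediator Clspn (4.47 and 29.5 CPM). Of the G1/S cyclins, CDKs and E2F factors 3 of 17 were called, the S-phase cyclin Ccna2 (1.56 and 34.3 CPM), E2f2 (1.71 and 16.5 CPM) and E2f8 (0.879 and 10.1 CPM). CDK inhibitors gave 0 calls of 5, with Cdkn1b (p27) at 20.0 and 27.9 CPM and Cdkn1c (p57) at 13.4 and 11.2 CPM. The mitosis list, which holds the 2 genes that set the groups, summed to 221 and 1790 CPM. Of the 18 called members, 13 were called under each of 14 other settings. The others were Mcm10 (12 of 14), Mcm4 and E2f1 (11 each), and Pola1 and Rfc4 (10 each).

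The Procr+ cells were next split by how much Top2a and Mki67 they had, to see at which level each replication gene differed from the cells with none. In the 373 cells with traces under 10 CPM, 0 of 36 tested members reached 2-fold (0.607% of all genes did), and the median over the 43 was 0.06. These cells had a median of 200662 counts, the deepest of all levels. In the 448 cells with 10 to under 50 CPM it was 0 of 37 (1.71% of all genes), with a median of 0.35. In the 370 cells with 50 to under 200 CPM it was 22 of 40 (2.4%), with a median of 1.06, and in the 294 cells with 200 CPM or more it was 34 of 41 (8.2%), with a median of 1.83. The called members thus lay in the 2 upper levels. At 10 to under 50 CPM, Mcm10 (4.68 CPM, 1.76), E2f1 (9.65 CPM, 1.04) and Chaf1a (2.32 CPM, 1.03) were past 2-fold but under the 10 CPM needed for a call. In the level from 50 to under 200 CPM the count fell to 13 when each cell weighed equally and to 14 when cells were thinned to 20000 counts. The shares of all genes under those settings are not given here.

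Rrm2 stood at 4.77, 3.87, 8.10, 34.9 and 194 CPM from none to the highest level, with its large steps in the upper levels. Tyms had the same shape, at 34.5, 35.0, 49.6, 96.3 and 315 CPM. Lig1 had 71.2, 72.6, 101, 209 and 464 CPM and Mcm5 35.2, 42.5, 65.6, 113 and 199 CPM. Ung differed from these in reaching its highest level earlier, at 14.2, 17.2, 20.5, 53.1 and 53.2 CPM. Hells had 31.6, 35.6, 42.1, 126 and 180 CPM, with its largest step at 50 CPM as well. Mcm2, Dut, Pcna and Rpa2, which had missed the call over all cells, reached log2 ratios of 1.15, 1.10, 1.10 and 1.04 in the level from 50 CPM. A further 12 members passed 2-fold only at 200 CPM or more, among them Slbp (1.60), Rfc5 (1.59) and Pola2 (1.44). Gins4, Pold2, Pole, Rfc1, Rfc2, Rfc3, Fen1, Chaf1a and Chaf1b, 9 in all, were called at no level. Pole had 47.8, 48.4, 38.9, 44.6 and 50.2 CPM, without a trend, and Chaf1b 120, 110, 114, 127 and 135 CPM.

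**Figure D3:**
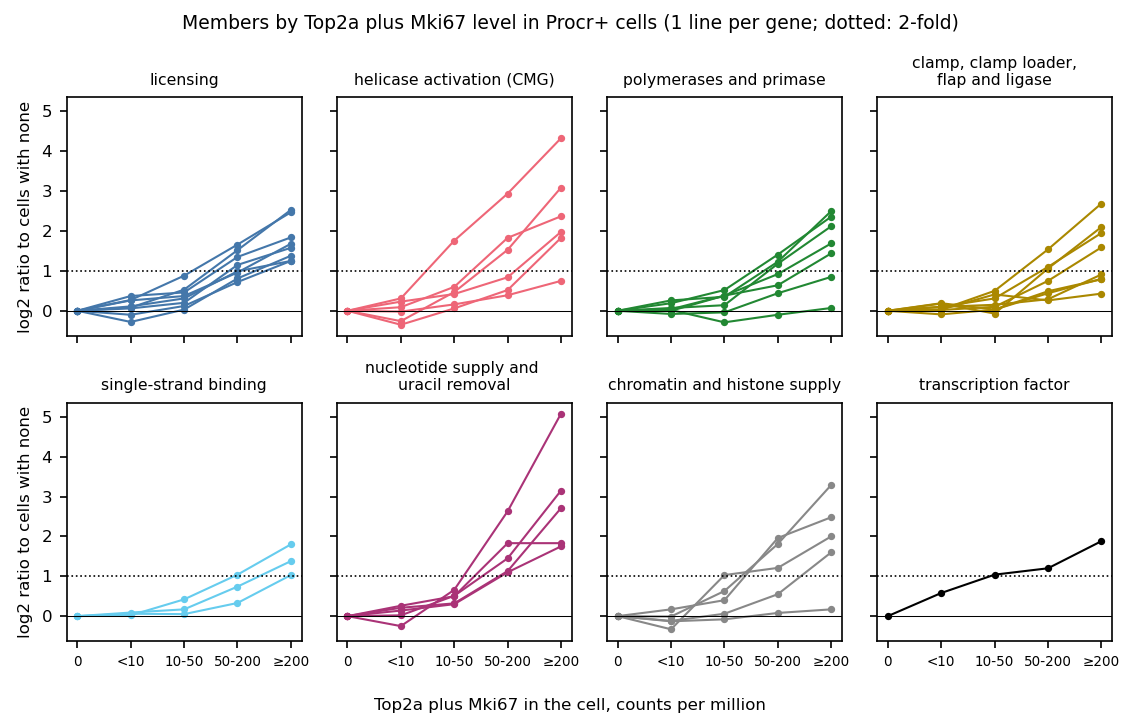
Log2 ratio of each replication gene to Procr+ cells without Top2a or Mki67, across 5 levels of Top2a plus Mki67 in CPM, 1 line per gene and 1 panel per role, with a dotted line at 2-fold. Most lines stay under the dotted line up to 50 CPM, Mcm10 (1.76), E2f1 (1.04) and Chaf1a (1.03) being above it at 10 to 50 CPM, and then separate, Rrm2 ending at 5.08 and Pole at 0.07.

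Detection in single cells gave a similar order. After thinning to 20000 counts, which left 1449 cells without and 1429 cells with Top2a or Mki67, Mcm5 was counted in 18.8% and 40.0% of cells (33.1% and 58.0% before thinning). Rrm2 was counted in 5.31% and 19.4% (15.2% and 38.1%), and Mcm10 in 0.897% and 7.70% (3.39% and 16.0%). Rfc2, by contrast, was counted in 74.5% and 82.0% (85.0% and 92.1%), so most Procr+ cells had it whether or not they had Top2a or Mki67. Mcm6 was also common, at 60.5% and 68.4% (74.9% and 85.6%). In B-lineage cells with neither gene, Mcm5 was counted in 16.2% (6.19 to 32.0%, exact Clopper-Pearson 95% interval, 37 cells) and Rfc2 in 27.0% (13.8 to 44.1%). The shares of Procr+ cells without Top2a or Mki67 were 18.8% for Mcm5 and 74.5% for Rfc2. The B-lineage intervals take pooled cells as independent, and 26 of the 44 cells before thinning came from 1 library. No conclusion is therefore drawn from them. The median depth of the B-lineage cells before thinning was 41512 counts. After thinning they had a median of 1627 genes, against 2983 in the Procr+ cells, so fewer genes of any kind were counted in them.

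Each thinned Procr+ cell with neither Top2a nor Mki67 had counts of a median of 10 of the 43 members (quartiles 8 and 12, from 2 to 37), and by library the median ran from 7.5 to 13.5. Cells with either gene had a median of 12 (quartiles 9 and 18). At least 20 members were counted in 82 of the 1449 cells without Top2a or Mki67, 5.66% (4.53 to 6.98%), and in 320 of the 1429 with one, 22.4% (20.3 to 24.6%). These intervals take pooled cells as independent and leave out the spread among libraries. A small part of the cells without Top2a or Mki67 thus carried a broad set of replication transcripts.

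**Figure D4:**
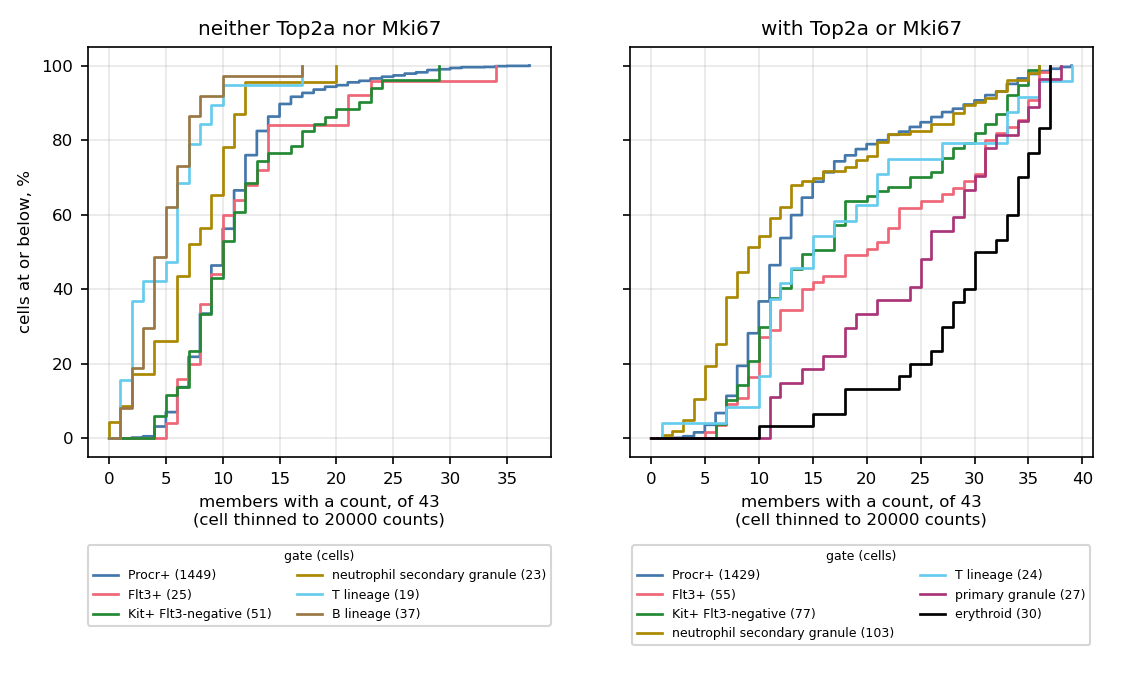
Cumulative share of cells, in percent, by how many of the 43 replication genes had a count after thinning to 20000 counts, 1 line per gate, for cells without (left) and with (right) Top2a or Mki67. On the left the B-lineage line is far left (median 5) and the Procr+ line has its median at 10. All genes counted after thinning also differed there, at medians of 1627 and 2983. On the right the erythroid line is far right (median 31), with a median of 3555 genes against 3174 in Procr+ cells.

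Within these 1449 cells members were counted together. When cells were ranked by the number of other members counted, Mcm2 was found in 19.8% of the lowest and 47.7% of the highest quartile. Mcm7 was found in 43.5% and 67.3%, Lig1 in 19.5% and 42.8%, and Mcm5 in 11.3% and 32.0%. Pole went the other way, with 24.9% and 19.0%. The median difference over 40 members counted in at least 2% of cells was 14.2 percentage points, and over 10563 other genes it was 2.68 points. The upper group also had more genes in all, 3150 against 2803 at equal counts, and the part of this in the difference was not tested. Counts of the scarce members lay in few cells. The top 10% of the 1564 cells held 98.0% of the counts of Gins2, 97.5% of Cdt1 and 96.8% of Hells, but 42.0% of those of Rfc2. Gins2 was counted in 200, Cdt1 in 240, Hells in 329 and Rfc2 in 1329 of these cells, so the shares partly restate detection.

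Inside the Procr gate, cells with neither Top2a nor Mki67 were compared by Cd34, which long-term HSCs of adult mice largely lack. The 1168 Procr+ Cd34+ cells (Cd34 at 253 CPM) were set against 108 Procr+ Slamf1+ cells without Cd34 (Cd34 at 2.18 CPM, Slamf1, which encodes CD150, at 164 CPM). All 8 licensing genes had a higher level in the Cd34+ cells, with a median log2 ratio of 0.76 and 2 past the call. Of 36 members tested 4 were called higher and 0 lower, beside 3.09% and 2.83% of all genes, and the median over the 43 was 0.42, with 38 above 0, against 0.01 over all genes. In 6 of 6 libraries with enough cells of both the median member was higher in the Cd34+ cells, by 0.15 to 0.99.

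Ung was at 15.7 CPM in the Cd34+ cells and 1.13 CPM in the Cd34-negative cells (2.97), higher in 5 of 6 libraries. Mcm2 was at 53.5 and 21.7 CPM (1.27), also in 5 of 6, Cdt1 at 19.0 and 7.11 CPM (1.3) in 4 and Hells at 34.9 and 16.8 CPM (1.01) in 3. The Cd34-negative level of Ung is 14 counts in 7 of the 108 cells. The top 5 of these cells held 93.3% of the Hells, 90.9% of the Cdt1 and 39.6% of the Mcm2 counts. Mcm5 (38.5 and 19.6 CPM, 0.94) and Cdc6 (21.4 and 11.7 CPM, 0.82) stayed below the call, as did all of the polymerase genes (median 0.27) and RPA genes (median 0.11). Rfc1 and Pola1 had slightly lower levels in the Cd34+ cells, 111 and 125 CPM (-0.17) and 14.6 and 17.1 CPM (-0.21). After thinning, Mcm2 was counted in 31.8% (29.1 to 34.7%) of 1112 Cd34+ cells and in 19.8% (12.4 to 29.2%) of 96 Cd34-negative cells (49.1% and 36.1% before thinning). At least 20 members were counted in 73 Cd34+ cells, 6.56% (5.18 to 8.18%), and in 2 Cd34-negative cells, 2.08% (0.253 to 7.32%). The intervals overlap, but they take pooled cells as independent, so no conclusion is drawn from them. Of the other replication genes 5 of 35 were called, among them the MCM-binding factor Mcmbp (22.0 and 9.38 CPM) and the histone chaperone Nasp (58.5 and 28.4 CPM). The G1 kinase Cdk6 was at 128 and 61.0 CPM, whereas Cdkn1c was at 13.2 and 22.1 CPM (-0.70). Depth differed alongside, at medians of 116275 and 89048 counts, and mitosis genes summed to 228 and 152 CPM. Mcm2 and Ung were each called under 14 of 15 other settings, Cdt1 under 11 and Hells under 8. The lowest ratios of Ung, Cdt1 and Hells were -0.14, -0.44 and -0.07. With Cd34-negative defined as under 50 CPM, 1 member was called and it was none of these 4. Without the 6 libraries with neutrophil markers 5 were called, and without Procr+ cells carrying markers of another lineage 7 were.

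In the Kit+ gate without Procr or Flt3, some replication genes had higher summed levels than in Procr+ cells, taking only cells with neither Top2a nor Mki67. In 55 Kit+ cells without Flt3, 8 of 37 members were called higher and 1 lower than in the 1564 Procr+ cells, beside 3.75% and 7.49% of all genes, with a median over the 43 of 0.42. Of the 8 licensing genes 4 were called: Mcm4 was at 72.2 against 32.5 CPM (1.13), Mcm3 at 151 against 70.5 CPM (1.09), Mcm2 at 105 against 49.2 CPM (1.08) and Cdt1 at 36.2 against 17.3 CPM (1.03). Ung was at 55.8 against 14.2 CPM (1.90) and Gins2 at 43.5 against 11.5 CPM (1.84). Lig1 was at 149 against 71.2 CPM (1.05) and Rrm2 at 11.8 against 4.77 CPM (1.14). Pole was the member called lower, at 22.3 against 47.8 CPM (-1.07). Mitosis genes summed to almost the same level, 224 and 221 CPM.

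These levels rested on few cells. The top 5 of the 55 cells held 98.0% of the Cdt1 counts, 90.1% of Gins2, 78.9% of Lig1, 75.6% of Ung and 70.2% of Mcm2, and all Rrm2 counts lay in 4 cells. Ung was counted in 23.5% of 51 thinned Kit+ cells (12.8 to 37.5%, 30.9% before thinning) and in 8.97% of Procr+ cells (7.55 to 10.6%, 14.7% before). Mcm2 was counted in 31.4% (19.1 to 45.9%, 38.2% before) and 29.9% (27.5 to 32.3%, 45.5% before), so its thinned shares were close although its summed levels were not. Here too the intervals take pooled cells as independent and do not compare the groups. The only library with at least 5 cells of both groups had a median member lower in the Kit+ cells, by -0.67. Without the dendritic list, the gate held 127 cells and 1 member was higher. None of the 8 was called under each of 14 other settings: Ung was called under 13, Gins2 under 12, Lig1 under 10, Mcm3 and Rrm2 under 8, Mcm2 and Mcm4 under 7 and Cdt1 under 5. The lowest ratios of Cdt1, Rrm2 and Ung were -1.2, -0.59 and -0.31.

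In 27 Flt3+ cells with neither Top2a nor Mki67, 3 of 37 members were called higher and 3 lower than in Procr+ cells. Of all genes 9.33% and 13.4% were called, so the share of members was no larger than in the background. The median over the 43 was 0.04, against 0.01 over all genes. Mcm5 was at 128 against 35.2 CPM (1.83), Mcm4 at 81.1 against 32.5 CPM (1.29) and Rrm1 at 77.5 against 34.2 CPM (1.16). Lower were Prim2 at 1.56 against 10.1 CPM (-2.12), Ung at 2.86 against 14.2 CPM (-1.98) and Tyms at 16.4 against 34.5 CPM (-1.03). The top 5 cells held 77.6% of the Mcm5, 84.0% of the Mcm4 and 70.8% of the Rrm1 counts, yet Mcm5 was counted in 40.0% of 25 thinned cells (21.1 to 61.3%, 59.3% before thinning). Mcm5 was called under each of the 14 other settings, Rrm1 under 12 and Mcm4 under 10. The Flt3+ level of Ung is 11 counts in 4 cells. Its share of thinned cells, 8.0% (0.984 to 26.0%, 14.8% before thinning), was close to the Procr+ share of 8.97% (14.7% before).

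In lineage-marker cells with neither Top2a nor Mki67 the median member was lower in 3 gates, B lineage (-0.50), T lineage (-0.30) and neutrophil (-0.75), where the median over all genes was also below 0 (-0.33, -0.41 and -0.26). The share of tested members called lower, 36.1%, 37.8% and 37.8%, is close to the background in the first pair and above it in the neutrophil gate. In 44 B-lineage cells (Cd79a at 3550 CPM, 26 of the cells from 1 library), 2 of 36 members were higher and 13 lower, beside 15.7% and 33.1% of all genes. Cdc6 had no count. When 3 counts over the group are taken as the floor, that floor lies 14.6-fold below its 19.5 CPM in Procr+ cells. The floor covers counting error only, and Cdc6 was counted in 17.9% of the Procr+ cells. Rrm1 was at 2.23 CPM (-3.45), Ung at 0.446 CPM (-3.40) and Rfc2 at 76.3 CPM (-1.59), whereas Pola1 was at 50.8 against 14.5 CPM (1.74) and Pold1 at 45.5 against 21.0 CPM (1.08). Another setting took Pold1 to -1.54, and the top 5 cells held 97.4% of the Pola1 and 80.4% of the Pold1 counts. Without the library with 26 of the cells, 20 members were lower, but the share of all genes under that setting is not given here. At least 20 members were counted in 0 of 37 thinned B-lineage cells (upper bound 9.49%). These cells also had fewer genes of any kind after thinning, a median of 1627 against 2983 in Procr+ cells.

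In 23 T-lineage cells, 6 of 37 members were higher and 14 lower, beside 17.6% and 37.7%. Cdt1 was at 77.0 against 17.3 CPM (2.09), the one called under each of the 14 other settings, and Mcm4 at 107 against 32.5 CPM (1.69). Cdc45 was at 32.8 CPM (1.85), Ung at 39.3 CPM (1.41), Uhrf1 at 30.3 CPM (1.39) and Dut at 368 CPM (1.19). All counts of Cdc45 and of Uhrf1 lay in 2 cells each, those of Ung in 3, and those of Cdt1 and Mcm4 in 5 each. Other settings took Cdc45 to -3.22, Ung to -0.77 and Uhrf1 to -0.38, so their direction turned. Of the 23 cells 13 came from 1 library. Without it 11 members were higher, but the share of all genes without it is not given here. Cdc6, Gins1, Gins2 and Pola1 had no count, and the floor of 3 counts lies 7.95-fold, 5.96-fold, 4.67-fold and 5.89-fold below their Procr+ levels. That floor covers counting error only. These genes were counted in 17.9%, 23.9%, 12.8% and 20.5% of the Procr+ cells, so 23 cells may miss them without a difference in level. Within the licensing group, Cdt1 and Mcm4 lay above and Cdc6 and Mcm3 (19.7 CPM, -1.79) below the Procr+ level. The shares of tested members called, 16.2% higher and 37.8% lower, were close to those of all genes. This split is therefore not particular to the members.

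In 47 cells with neutrophil secondary granule markers (Camp at 5550 CPM in the gate), which had a median of only 19568 counts, 3 of 37 members were higher and 14 lower, beside 15.0% and 25.6%. Higher were Cdt1 at 61.1 CPM (1.77), Gins2 at 41.7 CPM (1.77) and Rrm2 at 20.0 CPM (1.86). All Gins2 counts lay in 5 cells, the top 5 cells held 92.7% of the Cdt1 and 83.3% of the Rrm2 counts, and another setting took Gins2 to -2.01. Lower were, among others, Rfc3 at 7.22 against 84.9 CPM (-3.39), Pold1 at 2.78 against 21.0 CPM (-2.54) and Mcm5 at 8.33 against 35.2 CPM (-1.95). Rfc4 had no count, and the floor of 3 counts lies 10.6-fold below its Procr+ level. It was counted in 20.5% of the Procr+ cells. The list that defines the MHC class II cells was also passed by 1985 of the 3049 Procr+ cells. The 164 MHC class II cells had 1 of 37 members higher, Prim2 at 21.7 against 10.1 CPM (1.03), and 0 lower, beside 2.28% and 1.9%. The 7 primary granule cells had 5 of 39 members higher and 14 lower, beside 16.6% and 43.5%, too few cells to describe gene by gene, and 3 erythroid-marker cells were not compared.

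**Figure D5:**
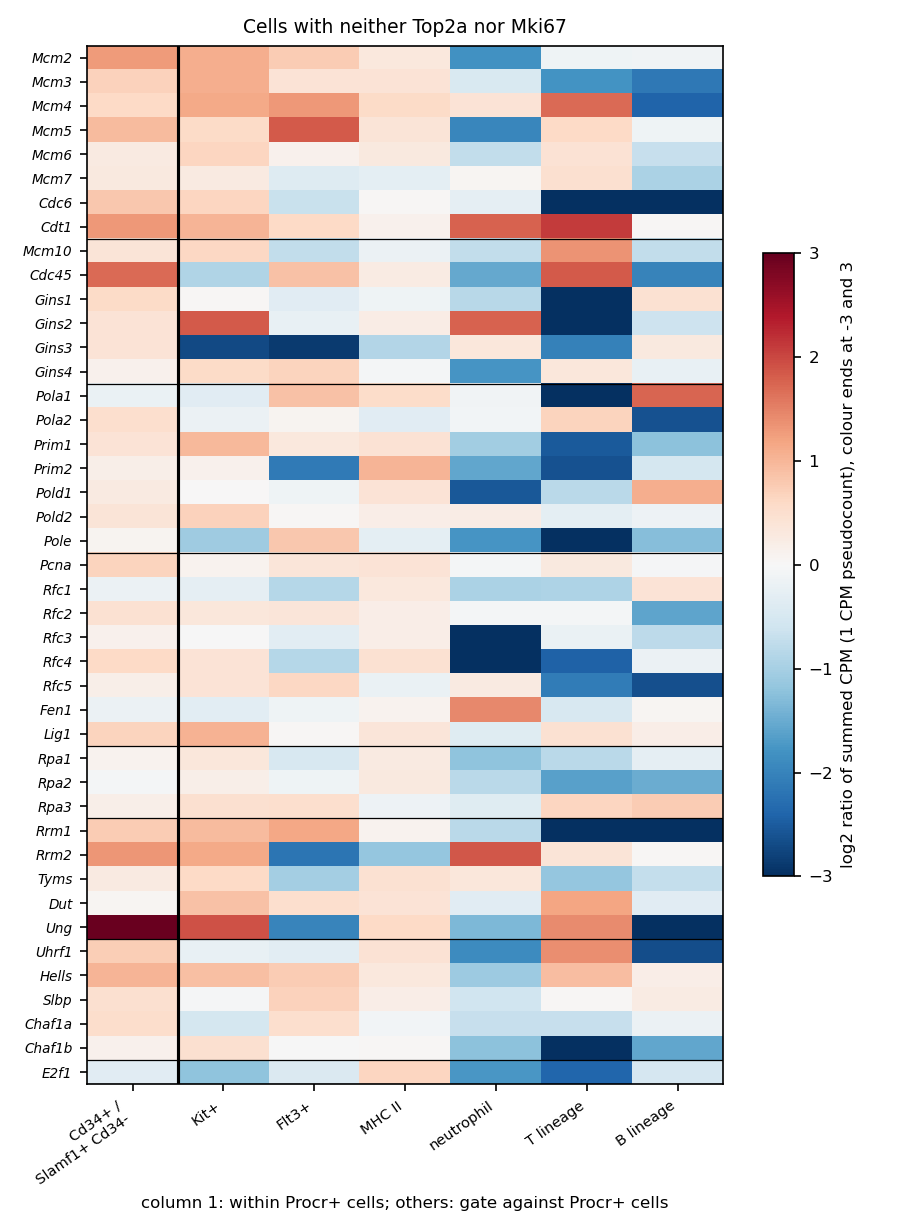
Heat map of log2 ratios of summed CPM for the 43 genes in cells with neither Top2a nor Mki67, the first column being Cd34+ against Cd34-negative cells within Procr+ cells and the others each gate against Procr+ cells, with colours ending at -3 and 3. Mcm5 is high in the Flt3+ column (1.83) and Ung in the first (2.97) and the Kit+ column (1.90), while Rrm1 and Cdc6 are low in the B-lineage and T-lineage columns.

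Where Top2a or Mki67 was present, several committed gates had higher replication levels than Procr+ cells. The 30 erythroid cells (Klf1, the erythroid transcription factor, at 555 CPM in the gate) had 25 of 41 members called higher and 0 lower, beside 10.0% and 30.0% of all genes. Their members summed to 8650 CPM against 3690 CPM. Rrm2 was at 403 against 55.1 CPM (2.85), Mcm10 at 58.5 against 11.5 CPM (2.25), Pola1 at 131 against 31.2 CPM (2.03) and Dut at 1170 against 302 CPM (1.95). Rfc4 (147 against 36.6 CPM, 1.98) and Cdc6 (98.3 against 29.3 CPM, 1.71) were called as well, whereas E2f1 (10.3 against 10.9 CPM), Chaf1b (127 against 120 CPM) and Rfc2 (371 against 301 CPM) were not. At least 20 members were counted in 26 of 30 thinned erythroid cells, 86.7% (69.3 to 96.2%), with a median of 31. Only 2 libraries held 5 or more cells of both groups, with median members of -0.62 and 0.53, so the direction within libraries was divided. Of the cyclins, Ccne1, which drives entry into S phase, was at 158 against 9.10 CPM, and mitosis genes summed to 4820 against 1790 CPM.

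In 31 primary granule cells (Elane at 1220 CPM and Mpo at 992 CPM in the gate), 19 of 42 members were higher, beside 5.63%, and 0 lower, beside 18.6%. Gins1 was at 114 against 30.0 CPM (1.89), Pola1 at 119 CPM (1.89) and Uhrf1 at 139 CPM (1.67), but 8 members were left without the library that gave most of these cells. In 59 Flt3+ cells it was 14 of 41, beside 4.02%, with 0 lower, beside 8.38%. Pola1 was at 111 CPM (1.80), Uhrf1 at 151 CPM (1.78) and Hells at 260 CPM (1.53), and the count fell to 6 with equal weight per cell and to 5 without 1 library. In 27 megakaryocyte-marker cells it was 13 of 41, beside 4.34%, with 0 lower, beside 17.1%, and these cells had mitosis genes at 1500 CPM, no more than the 1790 CPM of the Procr+ cells. Their Ung was at 120 against 33.9 CPM (1.80), Gins3 at 34.4 against 11.0 CPM (1.57) and Mcm2 at 249 against 87.6 CPM (1.5).

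In 26 T-lineage cells 11 of 42 members were higher, beside 12.9%, and 1 lower (Gins1 at 7.25 CPM, -1.91), beside 22.7%. Rrm2 led at 267 CPM (2.25), yet the 1 library with both groups had its median member lower, by -1.91, and the count was 4 with equal weight per cell. In 80 Kit+ cells without Flt3, 2 of 41 were higher, beside 2.56%: Tyms at 240 against 116 CPM (1.05) and Mcm10 at 24.8 against 11.5 CPM (1.04). In 132 neutrophil-marker cells, 2 of 42 were higher, beside 16.4%: Chaf1a at 13.0 against 2.49 CPM (2.00) and Mcm10 at 24.6 CPM (1.03). In both, 0 members were lower, beside 6.44% and 17.2%. Both gates had mitosis genes well above the Procr+ cells, at 4990 and 3770 CPM. Depth, the number of mitotic transcripts and library moved together with gate in these comparisons, and their part in the member levels was not tested.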

How the data were processed

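The authors deposited raw counts for each gene in each cell. HTSeq 0.9.1, HISAT2 2.1.0, Trimmomatic 0.36 and the build GRCm38 are named in the submitters' processing notes. Neither the strand setting nor whether a count is a read or a molecule is given there. The 17 columns of 1 further library were not used here. Of 4271 cells, 76 had under 1000 genes and 10 more exceeded 10% mitochondrial counts; library totals ran from 1665151 to 26184494 counts. No doublet caller was run, since cells were sorted singly, and 93 of 95 well barcodes recur in more than 1 library, since a barcode marks a well and not a cell.

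With 1 pooled sample no test was possible. Counts were summed per gate as CPM with a pseudocount of 1 CPM. Poisson 95% intervals on sums cover counting error only. Exact Clopper-Pearson 95% intervals on shares take the pooled cells as independent draws and leave out the spread among libraries. A value past 2-fold at 10 CPM was called. Genes given with values were those called, otherwise the extremes of each role group, and of other lists those among the 5 largest ratios, some of which are not reported here. Members, lists and gates were chosen with earlier results of these data known. Comparisons by Top2a and Mki67 level and among cells with those genes, and 4 alternative settings, were added after seeing the data. Positions are from GENCODE M21 and promoters from RefSeq (GRCm38.p6). Python 3.11.15, numpy 2.4.6, pandas 2.3.3, scipy 1.17.1 and matplotlib 3.10.9 were used, and the calling step was tested on simulated data.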

Additional observations from a re-analysis of the deposited data

How the results depend on the processing

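Of 307 counts of members called under other settings, 248 stayed within 1.5 times the reported count and 59 did not. Counts under other settings are given without the share of all genes, so they describe stability only. In Procr+ cells with against without Top2a or Mki67 every setting tried stayed within that bound. Of 132 medians, 47 were classed as the same, 82 as moved and 3 as changed in sign. The Flt3+ median became -0.01 with median-of-ratios scaling and -0.2 with markers at 50 CPM. The primary granule median became 0.64 with Top2a and Mki67 both allowed up to 10 CPM. Among cells with neither gene, members higher in Flt3+ cells became 7 (mean CPM over cells, or Procr at 1 count), 6 (thinned) and 5 (Top2a and Mki67 under 10 CPM), and members lower 1 (mean CPM, or under 10 CPM), 5 (no level filter, or markers at 50 CPM) and 0 (no dendritic list). In Kit+ cells members higher became 5 (thinned), 3 (under 10 CPM, or Procr at 1 count or at 50 CPM) and 1 (no dendritic list), and members lower 3 (no level filter, or Procr at 1 count) and 0 (pseudocount 5 CPM, under 10 CPM, markers at 50 CPM, no dendritic list, or without the largest library). In primary granule cells members higher became 10 (thinned), 3 (pseudocount 5 CPM) and 14 (under 10 CPM), and members lower 4 (under 10 CPM). In B-lineage cells members higher became 1 (pseudocount 5 CPM, under 10 CPM, or markers at 50 CPM) and members lower 20 without the largest library. In T-lineage cells members higher became 3 (under 10 CPM), 10 (at least 2000 genes) and 11 (without the largest library). In neutrophil-marker cells members lower became 8 (mean CPM) and 5 (under 10 CPM), and members higher 5 (markers at 50 CPM). In MHC class II cells members higher became 0 (thinned, pseudocount 5 CPM, under 10 CPM, without the largest library, or without the 6 libraries with neutrophil markers), and members lower 1 (no level filter). For Cd34+ against Cd34-negative cells the count became 2 (pseudocount 5 CPM), 1 (Cd34 at 50 CPM) and 7 (without Procr+ cells carrying markers of another lineage). Among cells with Top2a or Mki67, members higher in Flt3+ cells became 6 (mean CPM), 8 (thinned) and 5 (without the largest library); in Kit+ cells 1 (pseudocount 5 CPM, or without the largest library) and 0 (without the 6 libraries); in primary granule cells 8 (without the largest library); in neutrophil-marker cells 1 (mean CPM, thinned, or pseudocount 5 CPM) and 5 (without the largest library); in megakaryocyte-marker cells 22 (thinned); and in T-lineage cells 4 (mean CPM). At 50 to under 200 CPM of Top2a and Mki67 it became 13 (mean CPM) and 14 (thinned). The cause of these shifts was not tested. The planned erythroid comparison without Top2a or Mki67 was not run, since 3 cells were under the minimum of 20. No paired analysis was possible because cells carry no sample or replicate number. Members under 10 CPM and gates of few, shallow cells are limited by depth.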
